A study of Mus musculus with 4 samples.

Results

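The genes described here encode the core proteins of the spliceosome: the Sm and LSm proteins, the small proteins of the U1 and U2 particles, the SF3A and SF3B subunits and the PRPF proteins. They were chosen by symbol (Snrp, Lsm, Sf3a, Sf3b and Prpf followed by a letter or number, without Snrpn and without symbols marked as pseudogenes), which gave 47 of the 52189 genes in the deposited table. Of these, 46 passed a filter of at least 1 TPM (each transcript's length-scaled share of a library of 1000000) in at least 2 libraries and were tested. The remaining member, Snrpert, is annotated as a processed pseudogene close to Snrpe in sequence. It was listed at 0 in both IgG libraries and in SAFB library 2, and stood at 0.643 TPM in SAFB library 1. The members fall into 25 genes of the Snrp and Lsm series, mostly for small proteins, and 22 genes of the Sf3 and Prpf series, mostly for large ones.

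The spliceosome removes introns from pre-mRNA. It is built from small nuclear ribonucleoproteins (snRNPs), each a small nuclear RNA with a ring of Sm or LSm proteins and particle-specific proteins. U1 marks the 5′ splice site, U2 with SF3A and SF3B holds the branch site, and the U4/U6.U5 tri-snRNP brings in the RNAs and PRPF proteins from which the active site is made. The members are ubiquitous housekeeping genes, active in hepatocytes as in other cells. What is measured here is the mRNA or pre-mRNA of each gene in the nucleus, not its protein. SAFB is a nuclear matrix protein known to bind purine-rich RNA.

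RNA immunoprecipitation was used to find nuclear RNAs associated with SAFB in AML12, a mouse hepatocyte line established from the liver of a mouse that carried a transgene for human transforming growth factor alpha. All libraries came from AML12 cells kept in 10% serum, insulin, transferrin and selenium supplement and 0.1 µM dexamethasone. Cells were UV-crosslinked, and sonicated nuclear lysate was split between an anti-SAFB antibody (2 libraries) and control IgG (2 libraries). The input fraction is not analysed here. The labels do not say whether replicates were separate cultures, so p-values measure only the spread between these libraries, which may be technical. TPM keeps no read depth. Depth is thus unknown, and a higher value is a larger share of the recovered RNA, not a larger amount.

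Of the 10 hepatocyte markers examined, 10 were at or above 1 TPM in every library, with summed levels of 7503 and 7544 TPM in the IgG RIP and 6347 and 6596 TPM in the SAFB RIP. Fibroblast markers summed to at most 1.80 TPM and endothelial markers to at most 0.771 TPM. Immune markers summed to 6.31 to 32.0 TPM, nearly all from Cd68, with Adgre1 and Lyz2 listed at 0 in every library. Safb, the gene of the antibody's target, was at 169.8 and 161.4 TPM in the IgG RIP and at 988.0 and 880.1 TPM in the SAFB RIP. More genes were above 0 in the SAFB libraries (22389 and 21006) than in the IgG libraries (16031 and 17278). The IgG libraries also lay further apart: across all genes tested, the median absolute difference in log2(TPM + 1) was 0.37 between the IgG libraries and 0.17 between the SAFB libraries.

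In the SAFB RIP, 14 of the 46 tested members were higher than in the IgG RIP, 5 were lower and 27 did not pass (limma on log2(TPM + 1), Benjamini-Hochberg adjusted p below 0.05 over 16647 genes). Among those that rose were Snrpb2, Lsm14a, Sf3a1, Sf3a3, Sf3b1, Sf3b2, Sf3b6, Prpf4b, Prpf6, Prpf18, Prpf31, Prpf38a and Prpf39. Those that fell were Snrpb, Lsm4, Lsm8, Sf3b4 and Prpf19. Together 41.3% of the members passed, close to the background of 38.1 percent of all genes tested. By direction, 30.4% of members were higher against a background of 29.8 percent, and 10.9% were lower against 8.30 percent. The median log2 fold change of the members was 0.38, and that of all genes tested was 0.46.

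Because the median of all genes lay above 0, changes were also read against it, with each library centred on the median of its tested genes. Then 10 members were higher and 8 lower, where 34.1 percent of all genes passed, 16.4 percent higher and 17.6 percent lower. Sf3a1, Sf3b2, Prpf31 and Prpf39 were the members that no longer passed as higher. Snrpa, Sf3b3 and Prpf40b passed as lower in that scaling and not as deposited. Both SAFB values exceeded both IgG values in 25 members and were under them in 11, and the groups overlapped in 10. That is 78.3% of members without overlap, against 73.7 percent of all genes (52.3 percent above and 21.4 percent below). Without either SAFB library the members lost their calls in limma. So did nearly all of the other spliceosome genes described below, and the loss was not particular to the members. The error then comes from the IgG libraries alone. Among the 19 members that pass with all libraries, fold changes moved by at most 0.15 on the log2 scale (Prpf4b stood at 1.93 and 1.97). Some members that did not pass moved more. Without SAFB replicate 1 and 2 in turn, Sf3a2 stood at -0.19 and -1.06, and Snrpe at -0.37 and 1.05. With an IgG library left out, the 19 members moved by up to 0.55 (Snrpb2). Without IgG replicate 1, 21 members were higher and 6 lower, where 54.8 percent of all genes passed, 41.2 percent higher and 13.6 percent lower. Without IgG replicate 2 they were 22 and 9, where 61.2 percent of all genes passed, 45.8 percent higher and 15.4 percent lower.

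**Figure D1:**
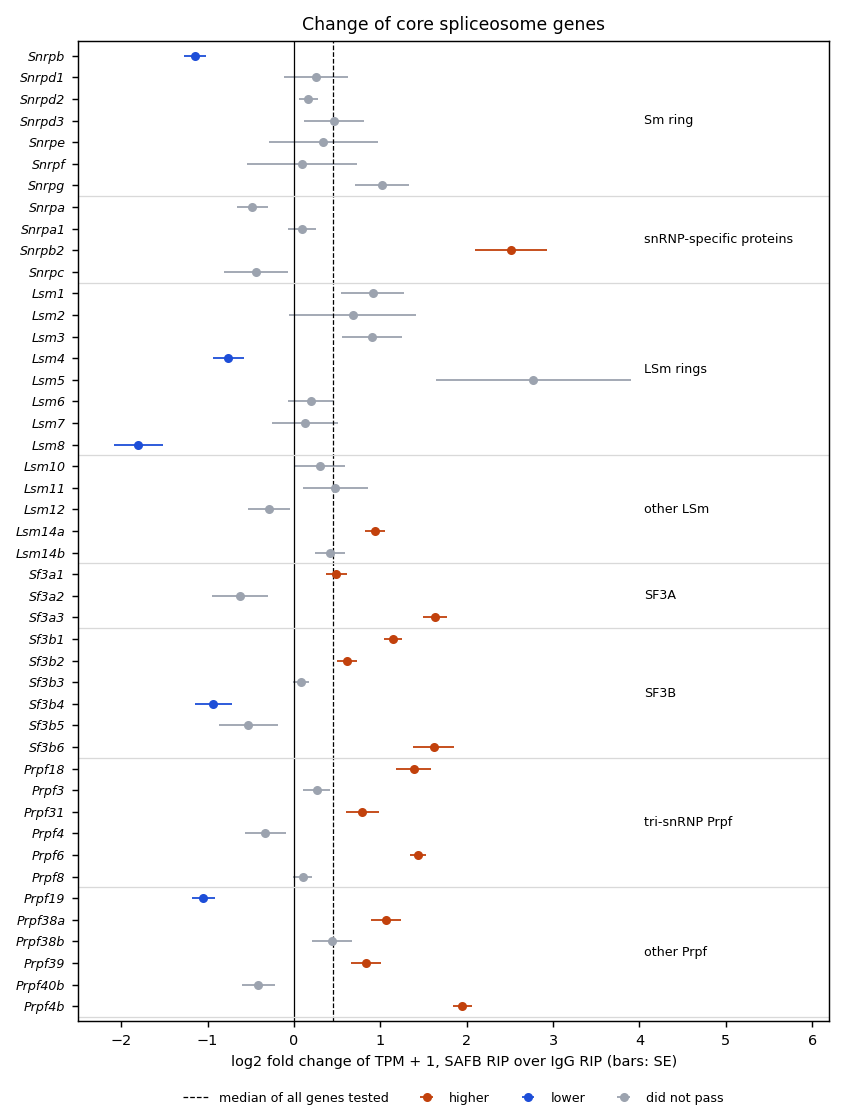
Log2 fold change (TPM + 1, SAFB RIP over IgG RIP, x axis) of 45 of the 46 tested members (y axis), grouped by role, with bars of 1 standard error and colour by limma call. The higher members are mostly in the SF3 and Prpf rows, and long bars are mostly in the Sm and LSm rows; the dashed line marks the median of all genes tested, 0.46.

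The coding sequences of the members that rose and fell differed in how often they held the purine hexamers GAAGAA and AGAAGA, searched on the sense strand of the coding sequence only (matches may overlap each other and the other hexamer). The 90-base stretch within 1 coding exon that held the most hexamer bases is given 5′ to 3′ for 3 members that rose and 3 that fell, with hexamer bases in capitals. These 6 genes were chosen after their values had been seen, and each stretch was picked for its matches, so they illustrate the count rather than test it. Sequences are from the GENCODE M21 transcripts (mm10). The stretches lie in Prpf4b at chr13:34884196-34884285 (plus strand), Prpf6 at chr2:181621787-181621876 (plus) and Sf3b2 at chr19:5279523-5279612 (minus), which all rose. For the genes that fell they lie in Prpf19 at chr19:10903338-10903427 (plus), Lsm4 at chr8:70677778-70677867 (plus) and Snrpb at chr2:130177077-130177166 (minus).
Prpf4b: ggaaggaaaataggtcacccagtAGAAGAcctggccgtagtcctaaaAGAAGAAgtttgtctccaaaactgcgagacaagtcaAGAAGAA
Prpf6: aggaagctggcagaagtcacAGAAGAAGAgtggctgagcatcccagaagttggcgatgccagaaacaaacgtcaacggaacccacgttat
Sf3b2: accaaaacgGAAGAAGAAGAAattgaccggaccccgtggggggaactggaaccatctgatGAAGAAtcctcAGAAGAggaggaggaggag
Prpf19: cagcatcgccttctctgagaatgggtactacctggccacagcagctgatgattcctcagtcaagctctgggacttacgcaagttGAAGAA
Lsm4: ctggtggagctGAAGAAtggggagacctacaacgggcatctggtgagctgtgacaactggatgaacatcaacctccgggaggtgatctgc
Snrpb: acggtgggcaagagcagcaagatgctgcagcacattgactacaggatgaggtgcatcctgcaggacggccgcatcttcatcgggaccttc
The Sf3b2 stretch held 7 matches, while Prpf4b held 5 and Prpf6 held 3. The stretches of Prpf19 and Lsm4 held 1 match each and that of Snrpb held 0. Over the whole coding sequence, however, 3.14% of the bases of Lsm4 lay in a hexamer, against 2.66% for Prpf6. For scale, 14.6% of all 90-base coding windows of the protein-coding genes tested held either hexamer. A match is a string of letters, not a measured SAFB site.

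The Sm proteins form a heteromeric ring around the Sm site of the U1, U2, U4 and U5 RNAs, and of their 7 genes 0 rose, 1 fell and 6 did not pass. Snrpb, which encodes SmB, was at 120.8 and 142.6 TPM in the IgG RIP and at 59.6 and 57.7 TPM in the SAFB RIP. Both SAFB libraries lay below both IgG libraries, with a log2 fold change of -1.15 ± 0.13 (SE; limma adjusted p = 0.00777). Relative to the all-gene median it stood at -1.61.

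Snrpd2, the other abundant Sm gene, was at 86.0 and 83.8 TPM in the IgG RIP and at 92.4 and 98.3 TPM in the SAFB RIP (0.17 ± 0.11, limma adjusted p = 0.277). Its groups did not overlap, but it did not pass, and its sign turned to -0.29 after median centring. Snrpg had the highest fold change of the ring, from 20.1 and 36.7 TPM to 56.1 and 56.3 TPM (1.02 ± 0.31, limma adjusted p = 0.0616). The SAFB values were nearly equal and exceeded both IgG values, while the IgG libraries lay apart.

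Wide spread between the IgG libraries was common in the ring. Snrpd3 was at 28.9 and 15.0 TPM in the IgG RIP and at 29.8 and 28.6 TPM in the SAFB RIP, and Snrpd1 at 30.2 and 15.2 against 27.4 and 24.1 TPM. Snrpf was at 3.25 and 12.7 TPM against 7.04 and 7.26 TPM. Snrpe was the exception in which the SAFB libraries were also apart, at 56.4 and 20.3 TPM, with IgG values of 17.7 and 40.0 TPM. In each of these genes the groups overlapped, and the log2 fold changes ran from 0.09 for Snrpf to 0.46 for Snrpd3, with 0.25 for Snrpd1 and 0.34 for Snrpe.

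A further 4 members encode small proteins specific to U1 or U2. Snrpb2, the gene of the U2 protein B″, was at 12.5 and 5.32 TPM in the IgG RIP and at 51.3 and 52.1 TPM in the SAFB RIP. It rose by a log2 fold change of 2.51 ± 0.41 (limma adjusted p = 0.0148), and by 2.05 relative to the median of all genes. No other member that passed rose as much. Snrpa1 encodes the U2 protein A′, which pairs with the B″ protein on the U2 RNA, and was at 52.3 and 45.0 against 47.7 and 56.1 TPM (0.09 ± 0.16, limma adjusted p = 0.693). The groups overlapped for Snrpa1, so the genes of this protein pair had different outcomes, although their difference was not itself tested.

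Snrpa, the gene of the U1 stem-loop binding protein, was at 101 and 75.7 TPM in the IgG RIP and at 59.9 and 64.9 TPM in the SAFB RIP (-0.48 ± 0.18, limma adjusted p = 0.0966). Both SAFB libraries were below both IgG libraries, and Snrpa passed as lower, at -0.94, once libraries were centred. Snrpc, which encodes a U1 zinc finger protein that steadies pairing with the 5′ splice site, was at 29.3 and 15.8 against 13.8 and 17.8 TPM (-0.44 ± 0.37, limma adjusted p = 0.393), with overlapping groups.

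The LSm proteins form a ring on U6 RNA in the nucleus (LSm2 to LSm8) and a ring that acts in mRNA decay in the cytoplasm (LSm1 to LSm7). Of their 8 genes 0 rose, 2 fell and 6 did not pass. Lsm8, whose product sets the nuclear ring apart, was at 25.0 and 33.7 TPM in the IgG RIP and at 8.54 and 6.77 TPM in the SAFB RIP. It had the lowest fold change of all members, -1.80 ± 0.29 (limma adjusted p = 0.0139). Lsm1, whose product takes the place of LSm8 in the cytoplasmic ring, was at 7.52 and 14.0 against 21.9 and 18.7 TPM (0.91 ± 0.36, limma adjusted p = 0.115). The SAFB libraries thus lay below the IgG libraries for Lsm8 and above them for Lsm1, which did not pass.

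Among the subunits shared by both rings, Lsm4 fell from 36.0 and 33.2 TPM to 19.3 and 20.8 TPM (-0.76 ± 0.18, limma adjusted p = 0.0323). With a GC trend removed it stood at -0.02 and did not pass (limma adjusted p = 0.949), nor did it pass with a coding transcript length trend removed (-0.55, limma adjusted p = 0.0642). Lsm5 had the highest fold change of all members, 2.77 ± 1.13, but did not pass (limma adjusted p = 0.119). It was listed at 0 in IgG library 1 and stood at 8.63 TPM in IgG library 2, against 20.3 and 20.1 TPM in the SAFB RIP. The value thus rests on 1 IgG library: without IgG replicate 1 the log2 fold change was 1.14, and without IgG replicate 2 it was 4.41.

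Lsm3 was at 40.0 and 20.3 TPM in the IgG RIP and at 54.0 and 54.4 TPM in the SAFB RIP (0.90 ± 0.34, limma adjusted p = 0.104). Lsm7 was at 68.5 and 32.1 against 49.0 and 54.2 TPM (0.13 ± 0.38), with both SAFB libraries between the IgG libraries. Lsm2 and Lsm6 overlapped between the groups as well, at 0.68 ± 0.73 and 0.19 ± 0.26. For Lsm2 the IgG values of 2.96 and 14.6 TPM lay on either side of the SAFB values of 9.81 and 13.6 TPM.

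The 5 other LSm genes encode proteins outside these rings, and 1 of them rose and 0 fell. Lsm14a, which encodes a P-body protein that represses translation, was at 60.2 and 59.6 TPM in the IgG RIP and at 122.2 and 109.3 TPM in the SAFB RIP. It rose by 0.94 ± 0.12 on the log2 scale (limma adjusted p = 0.00889), and by 0.48 relative to the all-gene median. Its paralog Lsm14b was at 60.3 and 45.5 against 68.8 and 71.9 TPM (0.42 ± 0.18, limma adjusted p = 0.129). Groups did not overlap for either paralog, and the sign for Lsm14b turned to -0.04 after centring.

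Lsm12 was at 14.4 and 14.9 TPM in the IgG RIP and at 11.8 and 11.9 TPM in the SAFB RIP (-0.29 ± 0.24, limma adjusted p = 0.400). Lsm10 and Lsm11, whose products replace Sm subunits in the U7 particle that processes histone pre-mRNA, were low and did not pass. Lsm10 was at 9.82 and 7.84 against 10.3 and 11.8 TPM, and Lsm11, at 2.02 to 4.44 TPM, was the least abundant tested member.

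**Figure D2:**
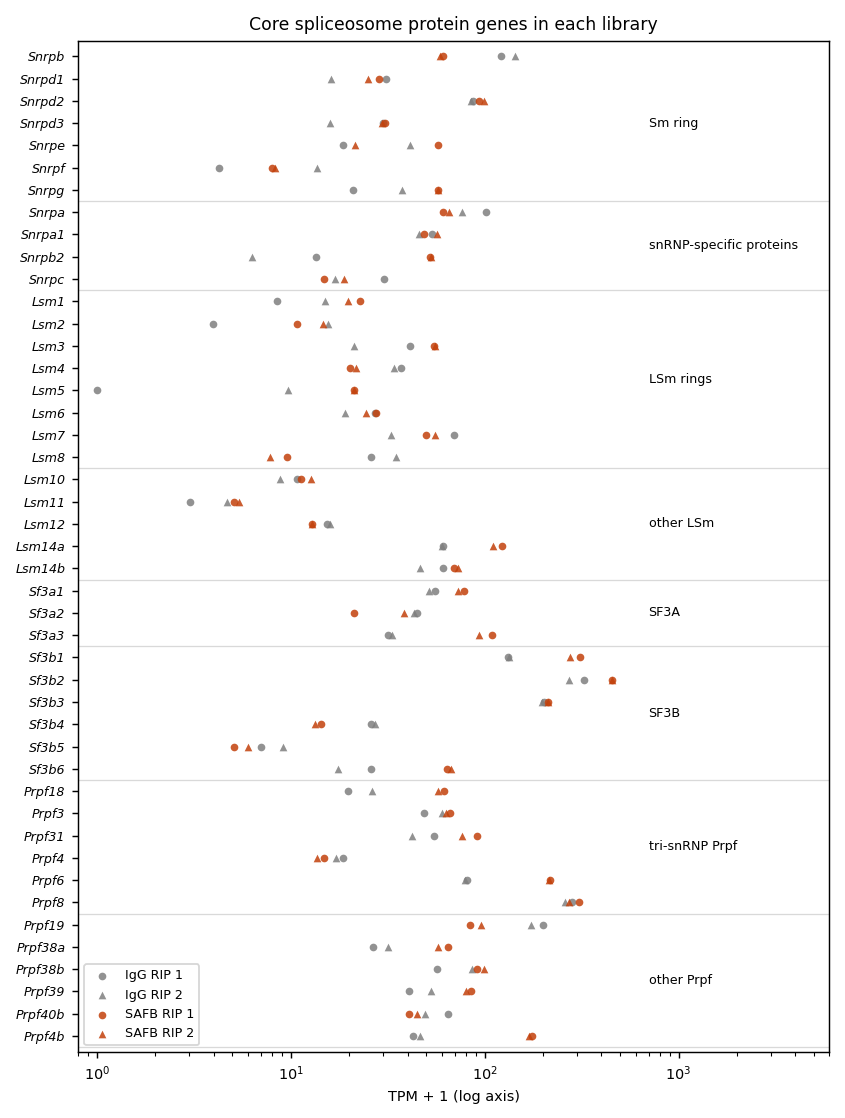
TPM + 1 (x axis, log scale) of 45 of the tested members in each of the 4 libraries, IgG RIP in grey and SAFB RIP in orange, replicate 1 as circles and replicate 2 as triangles, grouped by role. Grey symbols of the Sm and LSm genes often lie apart (Lsm5 at 0 and 8.63 TPM), while those of Prpf6 (79.6 and 78.1 TPM) nearly coincide.

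SF3A is a heterotrimer that completes the mature U2 particle, and 2 of its 3 genes rose. Sf3a3 was at 30.6 and 32.5 TPM in the IgG RIP and at 107.6 and 92.9 TPM in the SAFB RIP, a log2 fold change of 1.63 ± 0.14 (limma adjusted p = 0.00536). Sf3a1 rose less, from 54.7 and 50.9 to 77.0 and 72.3 TPM (0.49 ± 0.12, limma adjusted p = 0.0378), and stood at 0.03 relative to the all-gene median, where it did not pass, as also with a GC trend removed (0.39). Sf3a2 was at 44.0 and 42.0 against 20.1 and 37.6 TPM (-0.62 ± 0.33, limma adjusted p = 0.195). For Sf3a2 the SAFB libraries differed from each other more than for any other large gene. The subunits of this trimer therefore had values on both sides of 0.

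SF3B clamps the helix between U2 RNA and the branch site. Of its 6 genes among the members, 3 rose, 1 fell and 2 did not pass. Phf5a, for a further subunit, is not a member by symbol and is described below. Sf3b1, which encodes the HEAT-repeat protein that encloses the branch-site adenosine, was at 130.6 and 132.8 TPM in the IgG RIP and at 308.4 and 275.8 TPM in the SAFB RIP. It rose by 1.14 ± 0.10 (limma adjusted p = 0.00577), or 0.68 relative to the median of all genes. Sf3b2 was the most abundant member, at 322.6 and 272.0 against 452.0 and 455.1 TPM. It rose by 0.61 ± 0.12 (limma adjusted p = 0.0214) and stood at 0.15 after centring, where it did not pass. The IgG and SAFB libraries did not overlap for either gene.

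Sf3b6, the gene of p14, a small protein at the branch site, was at 24.95 and 16.5 TPM in the IgG RIP and at 63.1 and 65.7 TPM in the SAFB RIP (1.62 ± 0.24, limma adjusted p = 0.0121). Its rise was among the highest of the SF3 genes although its product is one of the smallest. Sf3b4, which encodes an RNA-binding protein next to the branch site, fell from 24.9 and 26.1 to 13.4 and 12.4 TPM (-0.93 ± 0.21, limma adjusted p = 0.0303). Its call was lost with a GC trend removed, at -0.41, or with a transcript length trend removed, at -0.71.

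Sf3b3, a beta-propeller scaffold subunit, was at 201.5 and 197.2 TPM in the IgG RIP and at 210.7 and 210.8 TPM in the SAFB RIP (0.08 ± 0.09, limma adjusted p = 0.514). With so narrow a spread, this abundant gene stood below the all-gene median and passed as lower, at -0.38, after centring. Sf3b5, the gene of another small subunit, was at 6.03 and 8.15 against 4.11 and 5.04 TPM (-0.53 ± 0.34), and did not pass.

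The Prpf genes of the next group encode tri-snRNP proteins or, in the case of Prpf18, a factor of the step that joins the exons. Of these 6 genes, 3 rose and 0 fell. Prpf6, whose product bridges U5 and U4/U6, was at 79.6 and 78.1 TPM in the IgG RIP and at 215.6 and 214.0 TPM in the SAFB RIP. It rose by 1.43 ± 0.09 (limma adjusted p = 0.00438), or 0.97 relative to the median of all genes. Both groups were tight, and the gap between them was far wider than either.

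Prpf18 rose from 18.7 and 25.2 to 60.7 and 56.2 TPM (1.38 ± 0.20, limma adjusted p = 0.0121). Prpf31, the gene of a U4 RNA-binding protein mutated in a form of retinitis pigmentosa, rose from 53.9 and 41.1 to 89.9 and 75.1 TPM (0.79 ± 0.19, limma adjusted p = 0.0351) and did not pass after centring, at 0.33. Prpf8 encodes the U5 scaffold that cradles the active site, and was at 281.0 and 259.4 TPM against 307.3 and 272.6 TPM (0.10 ± 0.11, limma adjusted p = 0.513). Prpf8 was the single large gene whose groups overlapped. The U4/U6 genes Prpf3, at 0.26 ± 0.16, and Prpf4, at -0.33 ± 0.24, did not pass.

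The remaining 7 Prpf genes act at other points, and 4 rose, 1 fell and 2 did not pass. Prpf4b, the gene of a kinase that phosphorylates tri-snRNP proteins, was at 41.9 and 45.4 TPM in the IgG RIP and at 174.1 and 169.0 TPM in the SAFB RIP. It rose by 1.95 ± 0.11 (limma adjusted p = 0.00387), or 1.49 relative to the all-gene median, the largest rise of the Sf3 and Prpf genes. Prpf40b, which encodes a U1-associated protein, was at 63.9 and 48.5 against 39.7 and 43.7 TPM (-0.41 ± 0.19, limma adjusted p = 0.150). Its SAFB values were both below its IgG values, and it passed as lower, at -0.87, after centring.

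Prpf19, the gene of the ubiquitin ligase after which the PRP19 complex is named, was at 198.7 and 171.5 TPM in the IgG RIP and at 83.0 and 94.8 TPM in the SAFB RIP. It fell by 1.05 ± 0.13 on the log2 scale (limma adjusted p = 0.00928), with both SAFB libraries well below both IgG libraries. Prpf38a, a B complex factor, rose from 25.6 and 30.9 to 63.9 and 56.2 TPM (1.06 ± 0.17, limma adjusted p = 0.0144), and Prpf38b did not pass at 0.44 ± 0.23. Prpf39, a U1-associated factor of alternative splicing, rose from 39.7 and 51.6 to 84.4 and 79.0 TPM (0.84 ± 0.17, limma adjusted p = 0.0242) and did not pass after centring, at 0.38.

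Set side by side by size, 2 of 24 tested Snrp and Lsm genes rose, 3 fell and 19 did not pass, whereas 12 of 22 Sf3 and Prpf genes rose, 2 fell and 8 did not pass. That is 8.33% higher and 12.5% lower for the small genes, and 54.55% and 9.09% for the large. Of all genes tested, 29.8% were higher and 8.30% lower. After median centring the small genes had 2 higher and 4 lower, and the large genes 8 higher and 4 lower. In that scaling 16.4% of all genes were higher and 17.6% lower. The median log2 fold change was 0.27 for the small genes (range -1.80 to 2.77, 18 of 24 positive) and 0.55 for the large genes (range -1.05 to 1.95, 16 of 22 positive), against 0.46 for all genes. The SAFB libraries lay above the IgG libraries in 10 small genes, below in 5 and overlapping in 9, and above in 15 large genes, below in 6 and overlapping in 1. Over all genes they lay above in 52.3% and below in 21.4%. The medians of the fold changes thus differed by 0.28, and by 0.14 with a trend on coding transcript length removed, an alternative added after seeing the data. With the planned trend on transcript length removed they lay further apart, at 0.24 for the small and 0.61 for the large genes. Taken as levels instead, the median log2(TPM + 1) of the large minus that of the small genes was 0.71 and 1.26 in the IgG libraries and 1.52 and 1.65 in the SAFB libraries, which is 0.60 higher in the SAFB RIP without overlap, with an SD between libraries of 0.28. No test over genes was made of the size difference, since genes of 4 shared libraries are not replicates.

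The difference in counts went along with a difference in spread. The median absolute log2(TPM + 1) difference between the IgG libraries was 0.73 for the small genes and 0.17 for the large, while between the SAFB libraries it was 0.11 and 0.12. The median SE of the fold change was 0.33 for the small genes and 0.16 for the large. Small genes were also lower in level, with a median of 26.4 TPM against 63.7 TPM, and their coding transcripts were shorter, with medians of 1108 and 3415 bases. Without IgG replicate 1 the median log2 fold change was 0.32 for the small and 0.60 for the large genes, against 0.41 for all genes. Without IgG replicate 2 these medians were 0.15, 0.54 and 0.50. How much of the difference in counts these properties carry was not tested.

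Library by library, the summed TPM of the large genes was 1795 and 1722 in the IgG RIP and 2636 and 2561 in the SAFB RIP. The small genes summed to 854.9 and 793.7 TPM in the IgG RIP and to 928.5 and 904.7 TPM in the SAFB RIP. The ratio of large to small was thus 2.10 and 2.17 for the IgG libraries and 2.84 and 2.83 for the SAFB libraries, higher in each SAFB library than in either IgG library. On the log scale, which weighs each gene alike, the mean of the large minus the mean of the small genes was 1.20 ± 0.08 for IgG and 1.40 ± 0.02 for SAFB (SD, n = 2). With 2 libraries a side, 0.333 is the smallest two-sided p that exact permutation allows, and it is the value for this separation. Together the members took up 0.265% and 0.252% of the IgG libraries and 0.357% and 0.347% of the SAFB libraries.

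**Figure D3:**
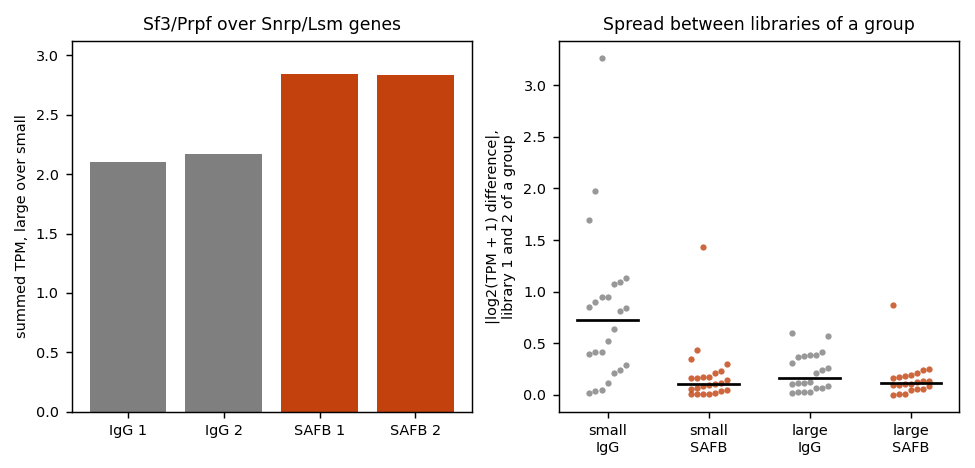
Left, ratio of the summed TPM of the Sf3 and Prpf genes to that of the Snrp and Lsm genes in each library (bars from 0). Right, absolute difference in log2(TPM + 1) between the 2 libraries of a group for each small or large gene (points) with the median (line): the ratio is 2.10 and 2.17 in the IgG RIP against 2.84 and 2.83 in the SAFB RIP, and the small genes have the widest IgG spread, with a median of 0.73.

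Size by itself followed the fold change weakly among the members. Across the 46 members, Spearman's coefficient between fold change and coding transcript length was 0.13, and it was 0.18 across 11961 protein-coding genes. The exceptions on either side were clear: Sf3b6, whose coding transcript falls in the shortest quartile of coding genes, rose, and Prpf19 fell. Within that shortest quartile, which ends at 1833 bases, the 16 small members had 0 higher and 3 lower, where 19.9% of all coding genes were higher and 14.6% lower. The Sf3 and Prpf members there were Sf3a3, Sf3b6 and Prpf38a, and all 3 rose. This split was read after the values had been seen.

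Base composition followed the fold change more closely. Spearman's coefficient between fold change and the GC content of the coding transcript was -0.56 across the 46 members, -0.52 within the small and -0.56 within the large genes, and -0.51 across all protein-coding genes tested. These values are across genes of the same 4 libraries, and genes are not independent replicates. Of the 13 members in the lowest GC quartile of coding genes (up to 45.7% GC), 8 rose and 0 fell, with a median log2 fold change of 1.14. Of the 7 members in the highest quartile (above 55.2%), 0 rose and 3 fell, with a median of -0.62. The fallers there were Snrpb (57.7% GC), Lsm4 (59.4%) and Sf3b4 (56.2%).

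Coding genes as a whole followed the same order. In the lowest GC quartile 47.1% of coding genes were higher and 1.54% lower, and in the highest 8.03% were higher and 24.6% lower. Members that departed from it were Lsm8, which fell at 47.5% GC, and Sf3b2 and Prpf6, which rose at 54.3% and 52.0% GC. With a GC trend removed from each library, 13 of the 14 members that rose still passed as higher and 3 of the 5 that fell as lower, with small and large medians of 0.24 and 0.49, where 31.3 percent of all genes passed, 26.1 percent higher and 5.20 percent lower. Sf3a1, Lsm4 and Sf3b4 did not pass in that fit, and no other member passed. That trend was fitted on the GC of the longest annotated transcript of each gene, not on that of the coding transcript given above. For Lsm8 these were 39.7% and 47.5%. The part of base composition in the single calls was not tested beyond that fit.

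The purine hexamers, which also lower GC, ran in the opposite direction. The coding sequences of all 14 members that rose held at least 1 GAAGAA or AGAAGA, and a median of 2.61% of their coding bases lay in one. To hold a hexamer is common. Over coding transcripts, untranslated parts included, 82.3% of all coding genes tested held GAAGAA and 83.6% held AGAAGA. The median share of coding bases over those genes was 1.03%. Of the 5 members that fell, 2 held a hexamer, namely Lsm4 and Prpf19, and the median was 0.0%. Lsm4 had 3.14%, above the median of the members that rose. Of the 27 that did not pass, 21 held one, with a median of 1.39%. Prpf4b had 12 matches of GAAGAA and 16 of AGAAGA in 3021 coding bases, and Sf3b2 had 16 and 14 in 2634, while Snrpb, Lsm8 and Sf3b4 had 0 of each.

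Long sequences have more chances of a match, so shares of 90-base coding windows were also compared. Either hexamer occurred in 27.2% of the 294 windows of the 14 members that rose. For the 5 members that fell it was 6.67% of only 45 windows. Among all coding genes the shares were 19.1% for those that rose and 8.17% for those that fell. The share was 18.6% for the small and 21.4% for the large members, so the size groups differed less in it than the calls did. Per kb of coding transcript, untranslated parts included, the size groups lay further apart. The small and large medians were 0.73 and 1.36 for GAAGAA, and 0.75 and 1.47 for AGAAGA. Across members, Spearman's coefficient between fold change and AGAAGA per kb of coding transcript was 0.44, and for GAAGAA it was 0.47, against 0.34 for both over coding genes. Within the small genes the coefficients were 0.18 and 0.30, and within the large genes 0.57 and 0.65. Of the 8 small members in the top quartile of coding genes by GAAGAA per kb, 0 rose and 1 fell, with a median log2 fold change of 0.19, and of the 13 large members there 10 rose and 0 fell, with a median of 0.84. Among all coding genes in that quartile 45.8% were higher and 3.95% lower. Snrpf and Lsm6 went the other way: 6.59% and 5.00% of their coding bases lay in a hexamer, and their log2 fold changes of 0.09 and 0.19 did not pass.

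**Figure D4:**
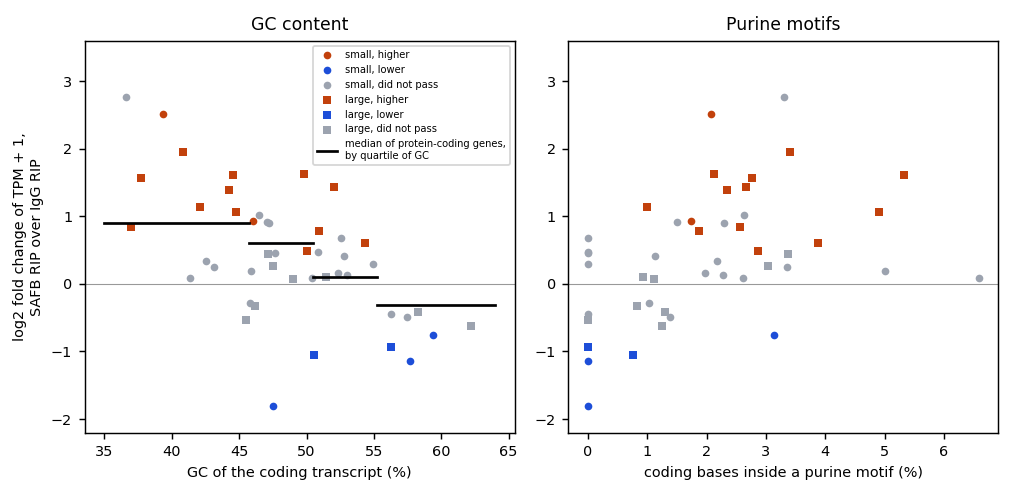
Log2 fold change (TPM + 1, SAFB RIP over IgG RIP, y axis) of each tested member against the GC percent of its coding transcript (left) and the percent of its coding bases inside a purine hexamer (right). Circles are small and squares large genes, coloured by limma call, and black lines give the median of all protein-coding genes in each GC quartile, falling from 0.90 to -0.31 as the members do.

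Many members have processed copies elsewhere in the genome, and reads can be split or misplaced between near-identical copies. At 90% identity or more over at least 80% of the coding sequence, 13 small members had 40 annotated copies in all and 3 large members (Sf3b4, Prpf19 and Prpf38a) had 4. These counts take in matches of any gene type, among them the protein-coding genes Zfp410 (for Lsm6) and Vmn2r110 (for Snrpa). Most of those in the deposited table were listed at 0 in all libraries. Copies of Lsm6, Snrpf, Snrpg, Snrpc and Prpf19 reached the 1 TPM needed for testing, some of them at levels far above it, and the values of these 5 members are uncertain to that extent. The Snrpg copy Gm8186 was identical to it over the coding sequence, at 0 and 1.49 TPM in the IgG RIP and at 4.89 and 3.83 TPM in the SAFB RIP.

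A set of 3 copies, singled out after their values had been seen, was far higher in the SAFB RIP although their parent genes did not rise. Gm15197, a copy of Snrpc at chr10:42330786-42331263 (minus strand) inside Afg1l, was at 0.705 and 0.801 TPM in the IgG RIP and at 61.3 and 55.9 TPM in the SAFB RIP. Its log2 fold change was 5.09 ± 0.29 (limma adjusted p = 0.00378), while Snrpc did not pass, at -0.44. Afg1l, the gene around it on the same strand, stood at 0.58 ± 0.18 and did not pass (limma adjusted p = 0.0610), so neither parent nor host moved like the copy. The 90 bases below hold 13 differences, shown in capitals, between the coding sequence of Snrpc (positions 282 to 371 from the start codon) and Gm15197 (chr10:42330963-42331052, mm10). They were picked as the gap-free stretch of the alignment with the most differences, to set the copy apart from its parent.
Snrpc: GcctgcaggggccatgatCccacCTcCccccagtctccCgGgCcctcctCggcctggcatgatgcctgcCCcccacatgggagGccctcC
Gm15197: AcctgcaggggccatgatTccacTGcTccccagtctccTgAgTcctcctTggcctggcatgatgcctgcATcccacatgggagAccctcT
Over the aligned part as a whole the copy was 90.4% identical to the Snrpc coding sequence.

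Gm7701, a copy of Prpf19 inside Galnt1, was at 2.54 and 5.03 TPM in the IgG RIP and at 41.1 and 41.6 TPM in the SAFB RIP (3.20 ± 0.35, limma adjusted p = 0.00758), whereas Prpf19 itself fell. Galnt1 rose as well, by 1.48 ± 0.40 (limma adjusted p = 0.0463), but not after centring. Gm2531, a copy of Lsm6 inside Rock1, was at 21.04 and 16.4 against 126.9 and 124.6 TPM (2.69 ± 0.17, limma adjusted p = 0.00407), with Lsm6 at 0.19 and Rock1 higher by 1.68 ± 0.27. Each copy lies on the strand of its host gene, so reads from host pre-mRNA and from a transcript of the copy itself cannot be told apart.

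**Figure D5:**
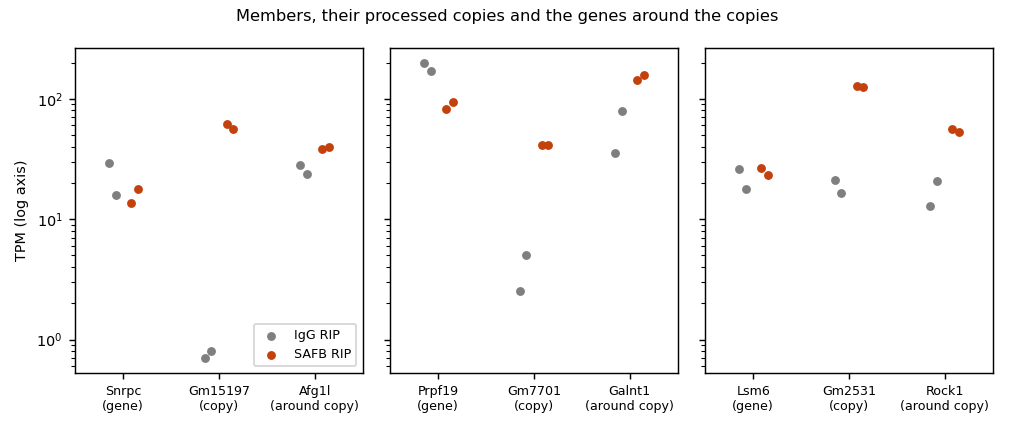
TPM (y axis, log scale) in each of the 4 libraries of a member, its processed copy and the gene in which the copy lies, for the copies of Snrpc, Prpf19 and Lsm6. In each panel the SAFB points (orange) of the copy lie far above its IgG points (grey), as for Gm15197 at 61.3 and 55.9 against 0.705 and 0.801 TPM, while those of the member do not.

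Overlapping genes leave other member values uncertain, since the use of strand in counting is not given in the sources used here. Sf3b4 shares 85 exon bases with Gm17690 on the opposite strand, which had means of 3.42 TPM in the IgG RIP and 108 TPM in the SAFB RIP while Sf3b4 fell. Sf3a2 shares 429 exon bases with Plekhj1, Prpf39 shares 599 with Fkbp3, and Prpf31 shares 984 with Gm15927, all on the opposite strand. Gm12917, a processed pseudogene in Sf3a3 outside its exons, had means of 4.71 and 48.8 TPM.

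Of 93 other spliceosome genes from a list covering the remaining snRNP proteins, the activated and catalytic complexes and Sm ring assembly, 35 rose, 8 fell and 50 did not pass. Their median log2 fold change was 0.45, near that of all genes. After centring 22 were higher and 19 lower, where 16.4% of all genes were higher and 17.6% lower. In the U2 and branch-site group 7 of 14 rose and 2 fell, and in the U1 and U11/U12 group 7 of 13 rose and 1 fell. In the PRP19 complex group 10 of 25 rose and 2 fell, and in the U5 and tri-snRNP group 3 of 14 rose and 2 fell. The B complex group had 3 of 6 higher, the catalytic group 3 of 9 and Sm ring assembly 2 of 12, with 0, 0 and 1 lower.

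Snw1, a component of the active spliceosome, rose from 24.2 and 44.7 to 206 and 161 TPM (2.43 ± 0.33), and Ik, a B complex protein gene, from 50.3 and 53.3 to 260 and 226 TPM (2.20 ± 0.12). Htatsf1, the gene of a U2-associated factor that binds SF3B1, rose by 2.34 ± 0.26, and Rnf113a2, a retrogene for an activated-spliceosome ubiquitin ligase, by 2.69 ± 0.52. In the other direction, Wdr77, the partner of PRMT5 that helps methylate Sm proteins before ring assembly, fell from 97.6 and 86.3 to 19.6 and 19.3 TPM (-2.18 ± 0.15, limma adjusted p = 0.00449). Phf5a, a further small subunit of SF3B, fell by 0.81 ± 0.20, Tssc4, a U5 assembly chaperone gene, by 1.15 ± 0.25 and Snrnp48, of the U11/U12 particle, by 0.60 ± 0.15. The most abundant genes of the list, Sf1 for the branch-point binding protein (-0.05 ± 0.13) and Srrm2 for a speckle scaffold (0.14 ± 0.16), did not pass.

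For comparison with lists of like function, 11 of 20 hnRNP genes rose and 1 fell (median 0.65), 4 of 10 SR protein genes rose and 1 fell (0.24), and 21 of 48 DEAD and DEAH box helicase genes rose and 3 fell (0.41). Cytosolic ribosomal protein genes, short and abundant, had 22 of 77 higher (28.6%) and 17 lower (22.1%) with a median of 0.15. The shares over all genes tested were 29.8% higher and 8.30% lower. The core spliceosome genes lay, at a median of 0.38, within the range of these lists, and no difference between lists was tested.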

How the data were processed

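RIP-seq was carried out on nuclear RNA of AML12 cells with an antibody against SAFB (2 libraries) and control IgG (2 libraries), and the libraries were strand-specific and depleted of ribosomal RNA, per the labels' protocols. The authors deposited 1 table of TPM values with gene symbols and Ensembl identifiers. Build mm10 and the tools StringTie, HISAT2, HTSeq and DESeq2 appear in the submitters' processing notes, without versions. Which tool gave the TPM values, with which annotation and whether by strand, is not given in the sources used here. The table held 52197 entries and 52189 distinct identifiers, and the 14 entries that shared an identifier were summed. Every per-sample column was matched to a library by its name.

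From the deposited TPM values, log2(TPM + 1) was computed for the 16647 genes that reached 1 TPM in 2 or more libraries. The added 1 TPM understates the change of low genes. Groups were compared with limma 3.58.1 in R 4.3.3 with a mean-variance trend, 2 residual degrees of freedom and 2.50 prior ones, two-sided, with Benjamini-Hochberg adjustment over all genes tested and a threshold of 0.05. Errors of fold changes are standard errors. TPM keeps no depth, so the number of libraries limits the precision, and no counting interval is given.

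Positions, exons and transcripts come from GENCODE M21 (mm10), in which all 47 members were found under the same symbol. Length, GC and hexamers, as described for members and coding genes, were taken from the transcript with the longest coding sequence. The trends on GC and on transcript length were instead fitted on the longest annotated transcript of each gene. Its GC can differ, as for Snrpb at 51.2% against 57.7% in the coding transcript. The trend on coding transcript length used the coding transcript. Processed copies were searched with BLAST 2.17.0 in the annotated transcripts. Tables were handled with Python 3.11.15 and pandas 2.3.3.

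The members and gene lists were chosen with earlier results of these data known. All members may be named, except that 1 is counted but not reported by name here. Those followed through the alternatives are, per role group, the 2 with the highest mean TPM and those with the highest and lowest fold change. Of the other spliceosome genes, those named are the 4 with the largest fold in each direction that passed without overlap at a mean of at least 5 TPM in the higher group, and the 2 most abundant. Alternatives covered the pseudocount, the filter, the scaling, trends on GC and transcript length, the variance model, each library left out and the replicate number as a block. A trend on coding transcript length was added after seeing the data.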

Additional observations from a re-analysis of the deposited data

How the results depend on the processing

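In all, 17 alternatives were run, including 1 that set only the Sm and LSm ring genes against the Sf3 and Prpf genes without Sf3b4, Sf3b5 and Sf3b6. The main limits are 2 libraries per group, an IgG group with more spread than the SAFB group, TPM values without depth, and an upward shift of all genes. After median centring, 2736 of all genes were higher and 2935 lower, against 4964 and 1382 as deposited. The members then had 8 lower, the other spliceosome genes 22 higher and 19 lower, and the medians were -0.19 for small and 0.092 for large genes. After quantile normalization, 2758 genes were higher and 2986 lower, 8 members and 18 other spliceosome genes were lower, and the medians were -0.17 and 0.27. With protein-coding genes only, 2600 were higher and 2322 lower, 19 other spliceosome genes were lower and the large median was 0.25. With a GC trend removed, 863 genes and 3 members were lower. Without a variance trend, 2 other spliceosome genes were lower. These scalings shift every gene of a library alike or by rank or trend, and the cause of single changes was not tested.

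Signs were followed for 25 members with all 4 libraries kept, and those that turned were all of genes that did not pass as deposited. They were Snrpd2 (-0.29 after median centring, -0.15 after quantile normalization, -0.13 with protein-coding genes only), Snrpa1 (-0.37, -0.22 and -0.21 in that order, and -0.29 with a GC trend removed), Lsm7 (-0.33, -0.18 and -0.16) and Prpf8 (-0.36, -0.22 and -0.20, -0.0096 with a transcript length trend removed and -0.19 with a coding transcript length trend removed). Lsm14b stood at -0.042 after median centring, and Sf3a2 at 0.24 with a GC trend removed. Members outside these 25 turned as well. Among them were Snrpf (-0.37) after median centring and Prpf40b (0.18) with a GC trend removed. Sf3b3 turned to -0.38 after median centring, where it passed as lower. Of the 19 members that passed, Sf3a1, Sf3b2, Prpf31, Prpf39, Lsm4 and Sf3b4 lost their call in at least 1 alternative that kept all 4 libraries, and the other 13 kept it in each of those.

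Leaving out 1 library at a time assumes that the lone sample of its group varies like the other group. It gave 767 to 7627 genes higher and 7 to 2566 lower, 0 to 22 members higher and 0 to 9 lower, and 0 to 46 other spliceosome genes higher and 0 to 16 lower. Snrpa1 ranged from -0.025 to 0.20 and Lsm7 from -0.40 to 0.67. The difference of the size medians stayed between 0.27 and 0.40.

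With the replicate number as a block, 4797 of all genes were higher and 1264 lower, 16 members were higher and 3 lower (5 and 2 of the small genes, 11 and 1 of the large), and 31 other spliceosome genes were higher and 4 lower. Snrpg, Lsm3 and Lsm5 then passed as higher (limma adjusted p of 0.0268, 0.0467 and 0.0315), and Sf3a1, Lsm4 and Sf3b4 did not pass (0.0761, 0.0696 and 0.0668). The labels do not say whether equal numbers mark one lysate. Deviations from the group means correlated at r = -0.02 for libraries of the same number. With 2 libraries per group, the value for different numbers is the same with its sign turned. It adds nothing, and an r near 0 cannot settle whether the samples were paired.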
